A study of Arabidopsis thaliana with 40 samples.

Results

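The TAA and YUCCA genes encode the enzymes of the main route from tryptophan to auxin (indole-3-acetic acid, IAA). The genes examined were TAA1 (AT1G70560), TAR1 (AT1G23320), TAR2 (AT4G24670), YUC1 (AT4G32540), YUC2 (AT4G13260), YUC3 (AT1G04610), YUC5 (AT5G43890), YUC7 (AT2G33230), YUC8 (AT4G28720) and YUC9 (AT1G04180). They were chosen by locus identifier, and no threshold on their values was used. All 10 were among the 32678 *Arabidopsis thaliana* loci of the table. The 40 samples were single cells of the root quiescent center (QC), sorted as GFP-positive from WOX5:GFP plants in the Col-0 background at 5 days after stratification and profiled by CEL-Seq, which primes on poly(A) and barcodes each cell. The WOX5 promoter, which is active in the QC, drives the reporter. There was 1 group and no control, and a profile could be assigned to 39 of the 40 cells.

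TAA1 and its relatives TAR1 and TAR2 are aminotransferases that convert tryptophan to indole-3-pyruvic acid (IPyA). The YUCCA proteins are flavin-containing monooxygenases that convert IPyA to IAA. In roots, auxin is most concentrated around the QC, and plants that lack both TAA1 and TAR2 do not maintain the root meristem. YUC3, YUC5, YUC7, YUC8 and YUC9 are known to act redundantly in roots, while YUC1 and YUC2 are best known from shoots, flowers and embryos.

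The profiles were not separate measurements. Total counts over the *Arabidopsis* loci ranged from 57655 in QC cell 4 to 7431708 in QC cell 22. With the profiles put in order of depth, 0 values of any row were below the value in the next shallower profile, over 38 steps, so each profile contained the counts of all shallower ones. The 39 profiles were therefore treated as 1 sample, and no test between cells or conditions was possible. Levels are given for the deepest profile as CPM, the counts scaled to a total of 1000000 over the *Arabidopsis* loci, with 95% exact Poisson intervals, which cover counting error only. A lower level per cell and fewer cells with a transcript cannot be told apart in such counts.

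The labelled cell type was checked against a short set of markers in the deepest profile. The QC markers WOX5, SCR and AGL42 had 10.6, 28.5 and 2.96 CPM, so 3 of 3 were above 0, against 51.3% of all loci. The paper lists SCR for both the QC and the endodermis, so SCR cannot tell these cell types apart. Of the other cell types, 4 of 4 stele markers, 1 of 2 endodermis markers and 2 of 3 epidermis markers were also above 0. Sets of 2 to 4 genes are too small to tell these counts from that share. The markers reached 33.5 CPM for WOL in the stele set, 130.0 CPM for MYB36 in the endodermis set and 57.3 CPM for CPC in the epidermis set. CASP1 of the endodermis, WER of the epidermis and all 4 root cap markers, SMB, FEZ, BRN1 and BRN2, were listed at 0. The GFP row was at 0 as well. The part of these other cell types in the levels given here was not tested.

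Reads of similar transcripts can be assigned to more than 1 gene, so the transcripts of the members were compared first. The longest annotated transcript of each gene was taken from the RefSeq annotation of TAIR10.1, and the longest run of identical bases was found for each of the 45 pairs of members. YUC5 and YUC9 shared the longest run, of 42 bases. It was followed by a run of 38 bases in YUC7 and YUC9 and a run of 36 bases in TAA1 and TAR1. The next pair had 25 bases, and the median over pairs was 14. All 3 leading runs are coding sequence, and they are shown because reads that fall within them cannot be assigned to 1 gene by sequence.
YUC5 and YUC9: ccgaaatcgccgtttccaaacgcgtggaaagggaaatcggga
YUC7 and YUC9: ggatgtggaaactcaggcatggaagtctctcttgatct
TAA1 and TAR1: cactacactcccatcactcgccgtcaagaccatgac
The run of YUC5 and YUC9 lies in exon 1 of YUC5, at chr5:17649013-17649054 on the minus strand, and in exon 2 of YUC9, at chr1:1105791-1105832 on the plus strand. It starts 479 bases before the end of the YUC5 transcript and 451 bases before the end of the YUC9 transcript. The run of YUC7 and YUC9 starts 770 and 934 bases before the transcript ends, and that of TAA1 and TAR1 918 and 579 bases. Within the last 500 bases of the transcripts, YUC5 and YUC9 also had the longest common run, of 42 bases, against 23 bases in the next pair. There the longest common run was 12 bases for YUC7 and YUC9 and 14 bases for TAA1 and TAR1. CEL-Seq reads come mainly from the 3′ ends of transcripts.

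The wider stretch around this run shows how the YUCCA genes known from roots differ from each other there. The 90 bases of YUC5 are printed with the ungapped best match in YUC9, YUC7, YUC3 and YUC8. Capitals mark bases that differ from YUC5.
YUC5: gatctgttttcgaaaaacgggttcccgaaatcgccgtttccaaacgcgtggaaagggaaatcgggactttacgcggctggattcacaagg
YUC9: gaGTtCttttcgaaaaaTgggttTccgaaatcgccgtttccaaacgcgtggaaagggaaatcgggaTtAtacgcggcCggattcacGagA
YUC7: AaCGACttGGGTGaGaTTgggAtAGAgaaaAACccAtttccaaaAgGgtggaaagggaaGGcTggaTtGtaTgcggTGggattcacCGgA
YUC3: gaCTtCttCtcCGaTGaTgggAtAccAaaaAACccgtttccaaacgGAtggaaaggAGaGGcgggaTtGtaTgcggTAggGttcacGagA
YUC8: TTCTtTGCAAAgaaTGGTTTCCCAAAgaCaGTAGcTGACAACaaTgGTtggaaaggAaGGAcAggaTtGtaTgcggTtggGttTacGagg
YUC9 differed from YUC5 at 10 of the 90 bases and at 0 of the 42 in the run. YUC7 differed at 34 of the 90 bases, YUC3 at 29 and YUC8 at 49. The longest stretch identical to YUC5 in this window was 12 bases in YUC7, 13 in YUC3 and 8 in YUC8. No gaps were allowed, and the run of 23 bases that YUC5 and YUC8 share in their last 500 bases lies outside the window.

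**Figure D1:**
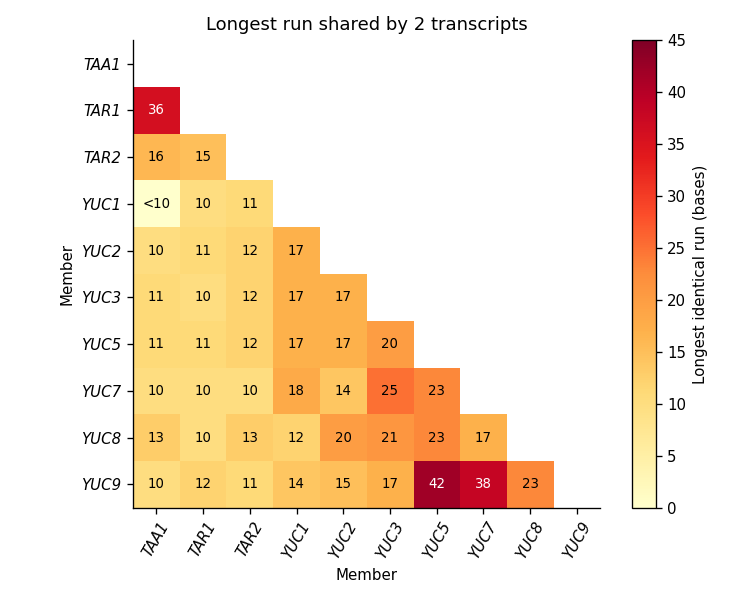
Longest run of identical bases in the transcripts of each pair of members, in bases, with both axes listing the 10 genes. YUC5 with YUC9 (42), YUC7 with YUC9 (38) and TAA1 with TAR1 (36) stand above the other 42 pairs, which reach 25 at most. A pair marked <10 had no run of 10 bases.

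In the deepest profile 4 of the 10 members were above 0, namely TAA1, YUC5, YUC8 and YUC9, against 51.3% of all 32678 loci. TAR1, TAR2, YUC1, YUC2, YUC3 and YUC7 were listed at 0 in all 39 profiles. TAA1, at chr1:26604855-26607652, encodes the aminotransferase of the first step and had 136 counts or 18.3 CPM (interval 15.4 to 21.6). YUC8, a monooxygenase gene at chr4:14192569-14194302, had 40 counts or 5.38 CPM (interval 3.85 to 7.33). YUC5, at chr5:17648576-17650375, had 9 counts or 1.21 CPM (interval 0.554 to 2.30), and YUC9, at chr1:1104493-1106241, had 8 counts or 1.08 CPM (interval 0.465 to 2.12). Thus each step of the pathway was represented by transcripts, the aminotransferase step by 1 of 3 members and the monooxygenase step by 3 of 7. YUC5 and YUC9 are counted here as separate members, although their counts were equal in 34 of the 39 profiles. Whether they were detected separately was not tested.

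**Figure D2:**
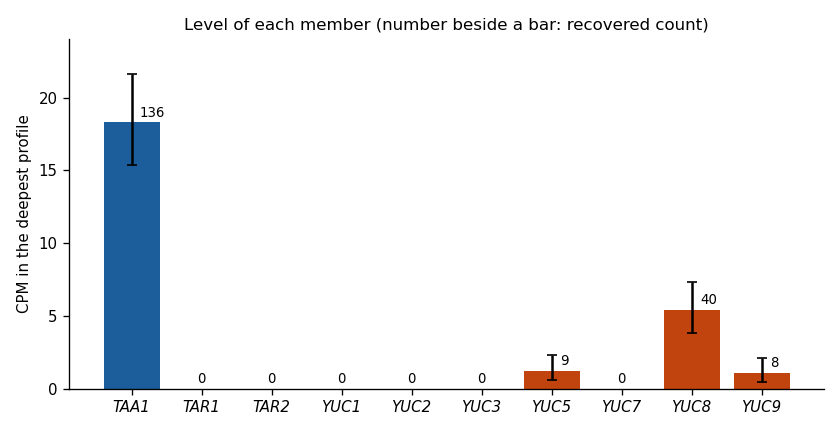
CPM of the 10 members in the deepest profile (QC cell 22), aminotransferases in blue and YUCCA monooxygenases in red. Error bars are 95% exact Poisson intervals on the count, and numbers give the recovered counts. TAA1 (18.3 CPM) and YUC8 (5.38 CPM) are separated by their intervals, those of YUC5 and YUC9 overlap, and 6 members are listed at 0.

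Levels of different genes were compared by CPM and per length, since counts from transcript ends need not scale with transcript length. TAA1 had 3.4 times the CPM of YUC8 (exact interval 2.37 to 4.97). Per length, TAA1 had 11.8 CPM per kb of transcript (interval 9.92 to 14.0), YUC8 had 3.104 (2.22 to 4.23), YUC5 had 0.673 (0.308 to 1.28) and YUC9 had 0.653 (0.282 to 1.29). The order was the same as by CPM. The intervals of TAA1, YUC8 and YUC5 did not overlap, while those of YUC5 and YUC9 did. With 9 and 8 counts, equal in 34 of the 39 profiles, this cannot decide whether YUC5 and YUC9 differ. In CPM per kb TAA1 was 3.81 times YUC8 (exact interval 2.66 to 5.56). The aminotransferase members summed to 11.8 CPM per kb, all of it TAA1. The YUCCA members summed to 4.43 CPM per kb, with YUC5 and YUC9 counted as separate genes.

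Set among all loci above 0 in the deepest profile, TAA1 had more counts than 59.8% of them and YUC8 more than 31.8%. YUC5 exceeded 6.78% and YUC9 5.61%. The loci above 0 had a median of 12.1 CPM, so TAA1 lay above this median and the 3 YUCCA genes below it. The median over all 10 members was 0 CPM, beside 0.673 CPM over all loci. At a limit of 5 counts 4 of 10 members were counted, against 50.3% of all loci, and at 1 CPM also 4 of 10, against 48.5%. At 10 CPM it was TAA1 alone, or 1 of 10, against 27.8% of all loci, and at 100 CPM 0 of 10, against 5.41%.

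The 6 zeros are values as listed and set no upper limit on expression. The smallest count above 0 in the table was 2, and in the deepest profile 67 loci had 2 counts, 110 had 3 and 169 had 4, against 202 with 5. Some loci were also listed at 0 at depths where many counts would be expected. GH3.9 (AT2G47750), which encodes an amido synthetase of the GH3 family, first appeared with 295 counts in QC cell 2, whereas its rate in the deepest profile gives 248 counts in the next shallower profile, where it was at 0. How such values arose is not given in the sources used here. TAR2 is known from the vasculature of the root, and YUC3 and YUC7 from the root tip, but for these genes, as for TAR1, YUC1 and YUC2, the table holds no counts. The annotation places an overlapping gene, AT2G33220, only at YUC7, and strand use in counting is not stated.

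Over the 39 profiles, TAA1 had 0 counts at the lowest, 53 at the median and 136 at the highest. YUC8 had 0, 15 and 40 counts, YUC5 had 0, 3 and 9, and YUC9 had 0, 3 and 8. As depth increased, TAA1 was found first, then YUC8, then YUC5 and YUC9, in the order of their levels. Both values come from the same nested counts, so this order is not a separate result. TAA1 was above 0 in 38 of the 39 profiles, YUC8 in 30, and YUC5 and YUC9 in 23 each. In the shallowest profile 0 of 10 members were above 0, so that no member was above 0 in all 39 profiles, against 15.3% of all loci. In the profile of median depth, QC cell 13, 4 of 10 were above 0, against 46.1% of all loci. TAA1 appeared in QC cell 38, at a total of 114683, with 2 counts. YUC8 appeared in QC cell 19, at a total of 543543, with 6 counts, where its rate in the deepest profile gives 2.93. YUC5 and YUC9 both appeared in QC cell 12, at a total of 1957507, with 3 counts each. The rates in the deepest profile give 2.37 counts for YUC5 and 2.11 for YUC9 at that depth.

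These numbers were close to those of other loci with similar counts. Loci with 0.8 to 1.25 times the count of TAA1 were above 0 in a median of 38 profiles, and from 31 to 39 profiles between the 5th and 95th percentile, over 1710 loci. For YUC8 the median of 1626 such loci was 31 profiles, with a range of these percentiles from 23 to 38. For YUC5 it was 23 profiles, from 5 to 31, over 782 loci, and for YUC9 it was 19 profiles, from 5 to 30, over 798 loci. All 4 members lay within these ranges.

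**Figure D3:**
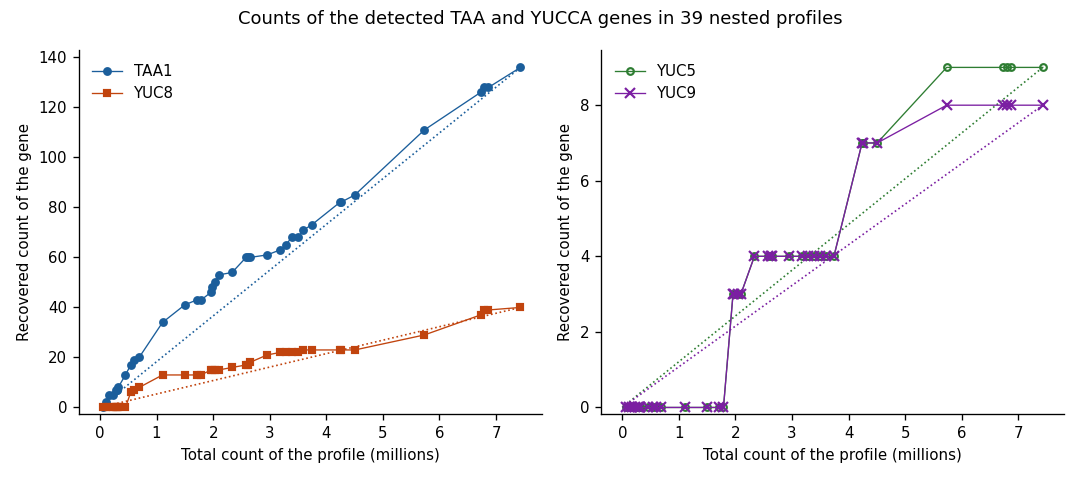
Recovered count of each detected member against the total count of the profile over the *Arabidopsis* loci, for the 39 nested profiles, with TAA1 and YUC8 on the left and YUC5 and YUC9 on the right. Dotted lines give the count expected at each depth from the level in the deepest profile. TAA1 rises to 136 and YUC8 to 40, and the YUC5 and YUC9 points lie on each other up to 7 counts.

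Across the 38 profiles in which it was above 0, TAA1 had a lowest value of 17.4 CPM, a median of 22.8 CPM and a highest value of 31.7 CPM. Its level in the deepest profile thus lay near the low end of this range. YUC8 had 5.06, 6.75 and 11.8 CPM as its lowest, median and highest value over 30 profiles. YUC5 ranged from 1.07 to 1.71 CPM around a median of 1.43 CPM, and YUC9 from 1.07 to 1.71 CPM around a median of 1.40 CPM. These ranges come from nested counts and are not the spread of separate cells.

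To compare counts that are not shared, the deepest profile was divided at QC cell 18, the profile nearest to the middle of its total, with 3740250 counts, leaving 3691458 counts added after it. TAA1 had 63 counts or 17.07 CPM in the later counts (interval 13.1 to 21.8) and 73 counts or 19.5 CPM up to QC cell 18 (interval 15.3 to 24.5). YUC8 had 17 counts or 4.61 CPM in the later counts (2.68 to 7.37) and 23 counts or 6.15 CPM before (3.898 to 9.23). YUC5 had 5 and 4 counts and YUC9 had 4 and 4 counts in the later and the earlier part. In all 4 genes the intervals of the parts overlapped. With 4 or 5 counts in each part, the overlap in YUC5 and YUC9 cannot show that their levels were stable. At single steps, TAA1 gained counts in 29 of 39, the shallowest profile included, YUC8 in 15, and YUC5 and YUC9 in 4 each.

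YUC5 and YUC9 gained their counts at the same depths. YUC5 had 3 counts in 4 profiles, 4 counts in 11, 7 counts in 3 and 9 counts in 5. YUC9 had 3 counts in 4 profiles, 4 counts in 11, 7 counts in 3 and 8 counts in 5. Their counts were equal in 34 of the 39 profiles, of which 16 had 0 for both, and differed by 1 count in the other 5, the deepest. Of the 989 other loci with 7 to 11 counts in the deepest profile, 5 stayed within 1 count of YUC5 in every profile, YUC9 among them. Counts equal to those of YUC5 in at least 34 profiles were found at 2 of these loci, again with YUC9 among them. This comparison was made after the values were seen. The 2 genes lie on different chromosomes and share the 42-base run printed above. No read length is given for these samples in the sources used here, so whether reads fit within the run is not known. For its hand-picked cells the paper gives reads longer than the run, aligned in local mode. Because their counts were equal at most depths, the levels of both genes and their separate detection are uncertain. Whether the same reads were counted at both loci was not tested. With their equal counts taken once, the YUCCA members had 49 counts or 6.59 CPM, against 57 counts or 7.67 CPM otherwise.

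Within the lists, 9 pairs of transcripts shared a run of at least 30 bases in their last 500 bases, YUC5 and YUC9 among them. In 2 pairs, CYP71A12 with CYP71A13 and TAR3 with TAR4, both genes were listed at 0. PAI1 and PAI2, which encode isomerases of tryptophan synthesis, shared 109 bases there and had 372 and 129 counts. GH3.2 and GH3.4, of the amido synthetase family, shared 56 bases and had 70 and 21 counts, and GH3.5 and GH3.6 shared 42 bases and had 322 and 68 counts. The runs of ILL5 with IAR3, ILL1 with ILL2 and NIT2 with NIT3 had 34 to 37 bases. In these 6 pairs the counts were equal in 0 of the profiles where both genes were above 0, and each gene had more counts than YUC5 and YUC9. How reads within the shared runs were assigned was not tested in any of these pairs.

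The rest of the auxin pathway was examined through 6 lists with 65 further genes. Tryptophan synthesis, which supplies the substrate of TAA1, had 14 of 14 genes above 0, with a median of 27.9 CPM. Its genes with most counts were ASA1, a subunit of anthranilate synthase and the committed step, at 180 CPM (interval 171 to 190) and TSB1, a tryptophan synthase subunit, at 124 CPM (116 to 133). The remaining members of the families, TAR3, TAR4, YUC4, YUC6, YUC10 and YUC11, were all listed at 0, or 0 of 6. Beside these stood 4 of 10 TAA and YUCCA members with a median of 0 CPM and 51.3% of all loci with a median of 0.673 CPM.

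The branch through indole-3-acetaldoxime, indole-3-acetonitrile and indole-3-acetamide had 8 of 11 genes above 0, against 51.3% of all loci, and a median of 7.27 CPM. NIT3 had 249.6 CPM (interval 238 to 261) and NIT1 had 165 CPM (156 to 174). They encode nitrilases, which can release IAA from the nitrile. CYP79B2, a cytochrome P450 that makes the acetaldoxime from tryptophan, had 1.35 CPM (0.645 to 2.47), and its relative CYP79B3 was listed at 0, as were CYP71A12 and CYP71A13.

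Of the genes that remove IAA or IPyA, 9 of 14 were above 0, against 51.3% of all loci. The list median was 8.68 CPM. GH3.9 had 165 CPM (interval 156 to 175) and UGT74D1, a glucosyltransferase that acts on auxins, had 58.4 CPM (53.0 to 64.2). VAS1, an aminotransferase that returns IPyA to tryptophan and so opposes TAA1, had 57.9 CPM (52.5 to 63.6). GH3.1, GH3.3, DAO2, UGT84B1 and IAMT1 were listed at 0. The list of IAA conjugate hydrolases covers a family that includes enzymes freeing IAA from amino acid conjugates. Its median was 39.2 CPM, and all 7 genes were above 0, against 51.3% of all loci. Among the 7 genes, ILR1 had 347 CPM (334 to 361) and IAR3 had 156 CPM (147 to 165).

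Transcription factors reported upstream of TAA or YUCCA genes were above 0 in 6 of 13 cases, near the share of 51.3% of all loci. The list median was 0 CPM. EIN3, a mediator of the ethylene response, had 71.9 CPM (interval 65.9 to 78.2) and RVE1, a MYB-like factor tied to the clock, had 38.2 CPM (33.9 to 42.9). PIF4, known to activate YUC8 in shoots, had 3.09 CPM. STY1, LEC2, FUS3, SPL, PIF5, PIF7 and IDD16 were listed at 0.

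**Figure D4:**
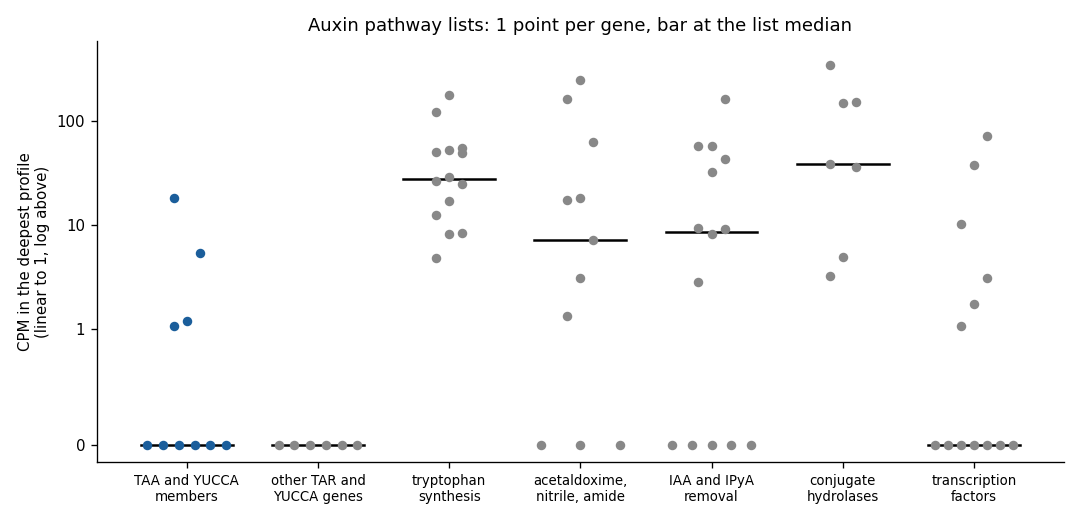
CPM in the deepest profile for each gene of the TAA and YUCCA members (blue) and of 6 other auxin pathway lists (gray), on an axis that is linear up to 1 and logarithmic above. Bars are list medians. Tryptophan synthesis and the conjugate hydrolases have no gene at 0, and 6 of 10 members and 6 of 6 other TAR and YUCCA genes are at 0. Of all loci, 51.3% are above 0, and the zeros set no upper limit on expression.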

How the data were processed

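Sorted QC cells were profiled by CEL-Seq. The authors deposited log2 values of depth-normalized read counts plus 1. For their hand-picked cells they describe Bowtie2 alignment to TAIR10, exon counting, fractional counts for multi-mapping reads and a minimum number of covered bases per gene. The submitters' processing notes name Bowtie2 and TAIR10 for these samples, and counter and filters are not given in the sources used here. The smallest step of each profile was used to recover whole counts, which lay within 0.00127 of a whole number. On simulated profiles of 32771 rows, this returned 100% of values. CPM was taken over *Arabidopsis* loci, leaving out 91 ERCC spike-in rows, with 4.97% of the counts of the deepest profile, and 2 reporter rows. Profiles were matched by the first 7 barcode bases.

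Members, lists and comparisons were chosen with earlier results of these data known. The named genes were the members, the 2 genes with most counts in each list, the markers and list genes at 0. VAS1, CYP79B2, PIF4 and the pairs that share a run of bases were named after their values were seen. Genes of like pattern were to be named for a member with at least 200 counts, which none had. The text gives transcripts, exons and coordinates of RefSeq TAIR10.1, since the table has none; TAIR10 itself was not used. All 10 members were found there. No molecular identifiers are stated, so reads are not independent molecules. Python 3.11.15, numpy 2.4.6, pandas 2.3.3, scipy 1.17.1 and matplotlib 3.10.9 were used.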

Additional observations from a re-analysis of the deposited data

How the results depend on the processing

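The 4 detected members were the count at limits of 5 counts and 1 CPM, in the second deepest profile and in that of median depth (2096738 counts). At 10 CPM, 1 of 10 members was counted, against 27.8% of all loci. The acetaldoxime, nitrile and amide branch then had 5 of 11 genes. Removal of IAA and IPyA had 5 of 14, and transcription factors had 3 of 13. In the profile of median depth the aminotransferase members summed to 25.3 CPM and the YUCCA members to 10.02 CPM, beyond the counting intervals of the main values of 18.3 and 7.67 CPM. The counting error of the median-depth sums themselves was not taken into account, and their counts are part of the deepest profile. Of 50 values under listed alternatives, 35 stayed within the limit set for their kind and 15 moved. This limit was the counting interval for CPM values and a factor of 1.5 for counts of genes or profiles. The YUCCA sum with the counts of YUC5 and YUC9 taken once, an alternative chosen after seeing the data, stayed within its interval. With at least 5 counts required, YUC5 and YUC9 were each found in 8 profiles, against 23 above 0. No paired analysis was possible because there was 1 group.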
